A study of Mus musculus with 19 samples.

Results

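The carnitine shuttle was followed through 6 genes, Cpt1a, Cpt1b, Cpt2, Slc25a20, Crat and Slc22a5, in a series on MED1, the Mediator subunit that bridges nuclear receptors and RNA polymerase II. They were chosen by the knockout minus control differences in brown fat, where Cpt1a was higher and Slc25a20 lower, so all brown fat values of these genes below are a description, without a test. The deposited table names a single gene for the transcript clusters of 5 of the 6. Cpt1b shares its cluster with Chkb and Gm44502 and has no value here. The 5 genes stand among 22180 measured genes. The 3T3-L1 experiment, which did not enter the choice, allowed tests.

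Fatty acids are burned inside mitochondria, but long-chain acyl-CoA cannot cross the inner membrane. CPT1 on the outer membrane moves the acyl group onto carnitine, the carrier SLC25A20 trades the acylcarnitine for free carnitine across the inner membrane, and CPT2 rebuilds acyl-CoA on the far side. CRAT does the same chemistry for acetyl and other short acyl groups, and SLC22A5 brings carnitine into the cell. CPT1 is the regulated step, since malonyl-CoA, the product of acetyl-CoA carboxylase, blocks it. Cpt1a encodes the form typical of liver and many other tissues, whereas Cpt1b encodes the form of muscle, heart and brown fat, a tissue that burns fatty acids to make heat.

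RNA was measured on 19 Affymetrix arrays in 3 experiments. The first compared MED1-KO 3T3-L1 cells, a mouse preadipocyte line edited with CRISPR/Cas9, with the parental WT 3T3-L1 line on day 0 and day 2 of fat cell differentiation, with 2 arrays for each genotype and day. The knockout arrays hold RNA pooled from separate clones, while the WT arrays hold the parental line. The second compared interscapular brown fat of Myf5CreMed1f/f embryos (4 arrays) and Myf5CreMed1f/w embryos (3 arrays), all at E17.5. Both carry Cre under Myf5, a gene active in the precursors of muscle and brown fat, and the controls keep 1 wild-type Med1 allele beside a floxed one. The third compared the same depot of AdipoqCreMed1f/f mice (2 arrays) and Med1f/f mice (2 arrays), all 10 weeks old. Adipoq drives Cre in mature fat cells, and these controls carry both floxed alleles but no Cre.

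Values are log2 RMA signals, in which 1 unit is a doubling. The 3 experiments appear to have been normalized apart: the array medians over all clusters ran between 4.69 and 4.79 for cells, between 3.49 and 3.57 for embryos and between 2.87 and 2.89 for adults. Levels are therefore compared only within an experiment and never between genes. Med1 averaged 7.12 on day 0 and 7.04 on day 2 in MED1-KO cells, against 8.36 and 8.41 in WT cells (n = 2 each), a difference over the 4 pairs of -1.31 ± 0.08 (limma, adjusted p = 0.00108). In embryonic brown fat Med1 lay at 6.88 to 7.10 in Myf5CreMed1f/f and at 6.94 to 7.82 in Myf5CreMed1f/w, a difference of -0.35 ± 0.19 that missed the threshold (limma, adjusted p = 0.369). In adult brown fat it lay at 5.13 to 5.28 in AdipoqCreMed1f/f and at 5.99 to 6.90 in Med1f/f, a difference of -1.24 ± 0.31 that also missed it (limma, adjusted p = 0.190). Whether the probes lie in the deleted part is not stated, so a weak drop does not measure the deletion. Errors after ± are standard errors, and nothing in the labels says that replicates came from separate cultures or animals, so p-values measure the spread between arrays, which may be technical.

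Sequences before an annotated start are printed for 3 of the genes. These are the 2 genes that chose the set, Cpt1a and Slc25a20, and Cpt2, which changed beside Cpt1a during differentiation. Each stretch is 250 bases, 5′ to 3′ on the gene's strand, from RefSeq on GRCm38.p6, which held an entry for 4 of the 6 genes. The Slc25a20 and Cpt2 stretches adjoin the start of the annotated gene. The Cpt1a stretch lies inside the annotated gene, which spans 3322326 to 3385735, so the start it precedes is within the gene. Capitals mark matches on either strand to AGGTCA, the core letters read by PPAR and other nuclear receptors, to the GC box GGGCGG, to CCAAT, or to the ETS motif CCGGAAG.
Cpt1a, chr19:3323051-3323300, plus strand: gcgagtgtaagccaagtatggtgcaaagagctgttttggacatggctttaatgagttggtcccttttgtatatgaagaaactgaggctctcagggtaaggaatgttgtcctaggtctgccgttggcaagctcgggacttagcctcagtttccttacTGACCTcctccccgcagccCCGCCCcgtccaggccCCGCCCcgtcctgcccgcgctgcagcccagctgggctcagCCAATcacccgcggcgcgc
Slc25a20, chr9:108661886-108662135, plus strand: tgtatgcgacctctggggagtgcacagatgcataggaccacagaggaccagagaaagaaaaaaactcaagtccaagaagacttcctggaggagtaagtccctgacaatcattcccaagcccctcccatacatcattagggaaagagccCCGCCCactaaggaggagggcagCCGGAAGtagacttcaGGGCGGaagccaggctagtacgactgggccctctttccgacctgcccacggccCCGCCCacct
Cpt2, chr4:107923590-107923839, minus strand: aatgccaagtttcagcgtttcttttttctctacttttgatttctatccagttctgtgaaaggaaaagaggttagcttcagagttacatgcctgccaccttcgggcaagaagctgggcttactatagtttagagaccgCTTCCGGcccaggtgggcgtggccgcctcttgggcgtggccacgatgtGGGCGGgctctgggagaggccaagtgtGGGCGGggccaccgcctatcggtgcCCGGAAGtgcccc
The Cpt1a stretch held 1 match to AGGTCA, 94 bases before that internal start and read on the opposite strand, with 2 GC boxes and 1 CCAAT. The Slc25a20 stretch held 3 GC boxes and 1 ETS motif, and the Cpt2 stretch 2 GC boxes and 2 ETS motifs. Of 32851 promoter stretches of the same length, 14% held AGGTCA, 32.7% GGGCGG, 33.8% CCAAT and 6.91% CCGGAAG. The longer repeat read by PPAR with its partner RXR, 2 copies of AGGNCA with 1 base between them, was in 0.338% of them and in none of the 4 stretches available, which says only that these letters are not in these windows. The motifs were chosen with these sequences in view, and a match is a description, not a binding site.

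Cpt1a stood apart from the other measured shuttle genes in adult brown fat. Cpt1b, the CPT1 form of brown fat, has no value here, so the entry step as a whole is not described. Cpt1a lay at 7.14 and 8.04 in AdipoqCreMed1f/f brown fat, against 4.45 and 3.87 in Med1f/f brown fat. Both knockout arrays were far above both controls, and the difference of 3.42 ± 0.35, or 10.7-fold, was the highest of all 22180 genes in this comparison. Leaving out any 1 of the 4 arrays moved it between 2.98 and 3.87. Cpt1a was chosen for its rise here, so the rank and the range only describe it. The control arrays were above the lower quartile of all clusters, which was 2.22 to 2.24 in this experiment, and above the array medians of 2.87 to 2.89. The Cpt1a signal in Med1f/f brown fat was therefore not at the floor of the array.

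Slc25a20, the carrier of the inner membrane, went the other way. It lay at 9.17 and 9.32 in AdipoqCreMed1f/f, against 10.20 and 10.27 in Med1f/f, a difference of -0.99 ± 0.14. Cpt2, the enzyme behind the carrier, lay at 10.00 and 10.13 in AdipoqCreMed1f/f, against 9.76 and 9.96 in Med1f/f. Its knockout arrays were above the controls by a margin smaller than the gap between the control arrays, with a difference of 0.21 ± 0.15. Crat, the acetyl-handling enzyme, lay at 9.56 and 9.48 in AdipoqCreMed1f/f, against 10.24 and 10.38 in Med1f/f, a difference of -0.78 ± 0.14. A second, dimmer Crat cluster ran the same way, with a difference of -0.51 ± 0.16. Slc22a5, the carnitine importer, lay at 5.63 and 6.19 in AdipoqCreMed1f/f, against 5.73 and 6.99 in Med1f/f, and here the groups overlapped. Its difference of -0.45 ± 0.44 turned to 0.18 without control replicate 2, the array at 6.99. Of the 5 genes, 4 had groups without overlap, 2 of them higher and 2 lower, in a comparison where 41.9% of all genes had such groups. The choice of the genes used this contrast, so nothing is read from the count.

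**Figure D1:**
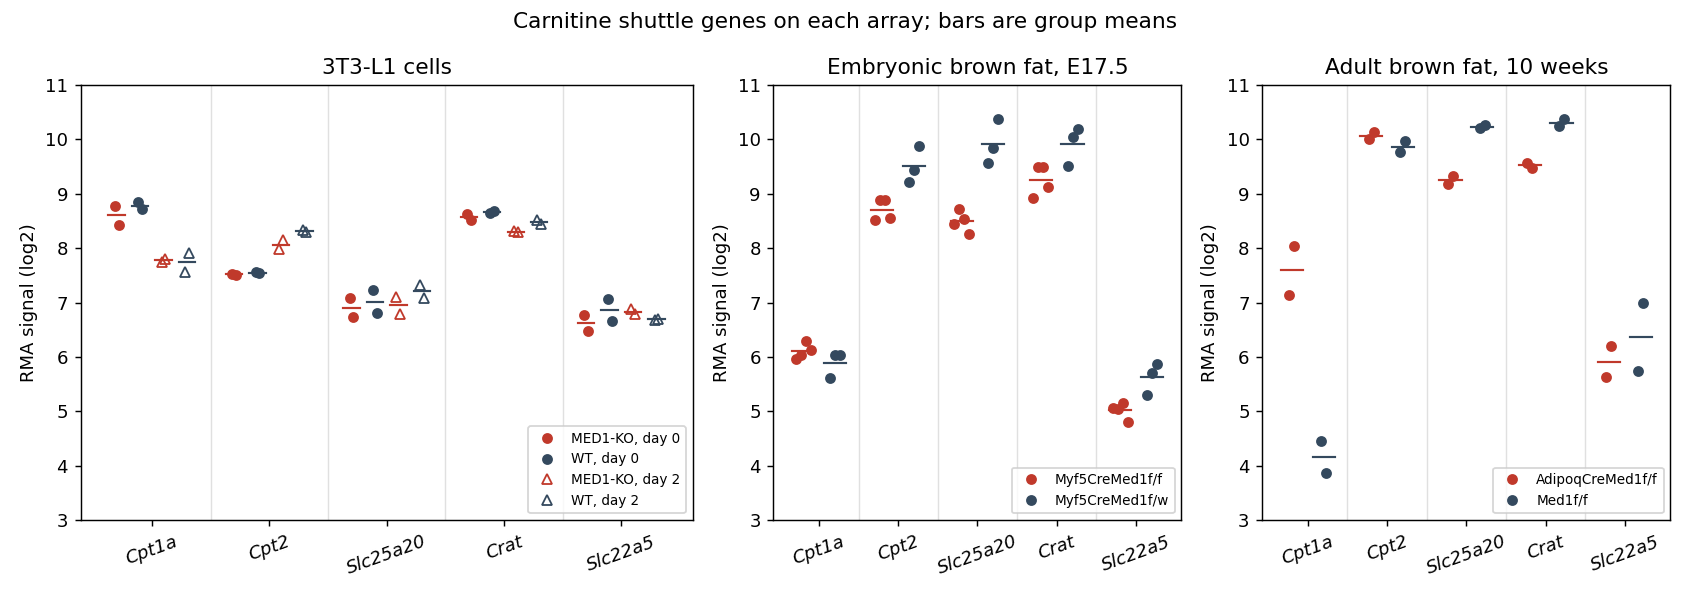
Log2 RMA signal (vertical axis) of the 5 measured carnitine shuttle genes on each array, with a point per array and a bar for the group mean, in 3T3-L1 cells (left), embryonic brown fat (middle) and adult brown fat (right). Cpt1a in adult brown fat shows the widest gap, with 7.14 and 8.04 in AdipoqCreMed1f/f against 4.45 and 3.87 in Med1f/f, and Slc25a20 lies below its controls in both brown fat panels.

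In the embryo the picture differed for Cpt1a. Cpt1a lay at 5.96, 6.03, 6.29 and 6.13 in Myf5CreMed1f/f brown fat, against 5.61, 6.03 and 6.03 in Myf5CreMed1f/w brown fat. The groups overlapped, and the difference was 0.21 ± 0.13. The other measured shuttle genes all had lower means in the knockouts.

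Slc25a20 lay at 8.45, 8.72, 8.54 and 8.25 in Myf5CreMed1f/f, against 9.56, 9.84 and 10.36 in Myf5CreMed1f/w. The lowest control array was 0.84 above the highest knockout array, and the difference of -1.43 ± 0.20, or 2.70-fold, was the 23rd lowest of 22180 genes. Cpt2 lay at 8.51, 8.89, 8.88 and 8.54 in Myf5CreMed1f/f, against 9.22, 9.44 and 9.89 in Myf5CreMed1f/w, a difference of -0.81 ± 0.18. Both mitochondrial partners of Cpt1a were thus lower in all 4 knockout arrays than in any control array.

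Crat lay at 8.93, 9.49, 9.49 and 9.13 in Myf5CreMed1f/f, against 9.51, 10.05 and 10.19 in Myf5CreMed1f/w, a difference of -0.66 ± 0.21 in which only 0.01 separated the nearest arrays of the groups. Slc22a5 lay at 5.06, 5.04, 5.16 and 4.81 in Myf5CreMed1f/f, against 5.29, 5.71 and 5.88 in Myf5CreMed1f/w, a difference of -0.61 ± 0.15. Of the 5 genes, 4 had groups without overlap and all 4 were lower, where 6.83% of all genes were lower without overlap. As in the adult, this contrast chose the genes and nothing is read from the count. Control replicate 1 was the lowest control for all 5 genes. Leaving out any 1 of the 7 arrays left the Slc25a20 difference between -1.61 and -1.21. Slc25a20 was chosen for its fall in brown fat, so its rank and this range only describe it.

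Set side by side, the knockout differences in embryonic and adult brown fat were -1.43 and -0.99 for Slc25a20, -0.66 and -0.78 for Crat and -0.61 and -0.45 for Slc22a5. For Cpt2 they were -0.81 and 0.21, and for Cpt1a 0.21 and 3.42. The 2 models differ in Cre driver, age and control genotype, so these cannot be told apart.

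**Figure D2:**
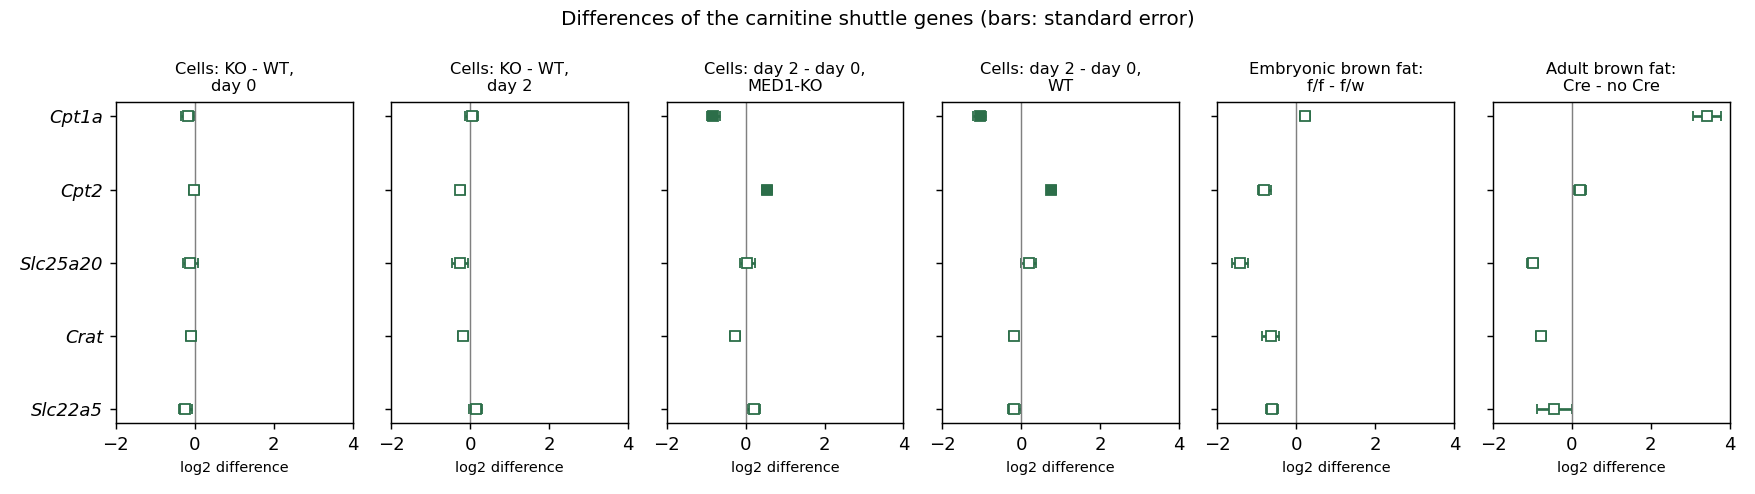
Log2 differences (horizontal axis, squares, with standard errors as bars) of the 5 carnitine shuttle genes in 6 comparisons. Filled squares passed limma's adjusted threshold of 0.05, which was applied to the 4 cell comparisons only, and the brown fat panels hold no test. Cpt1a and Cpt2 are filled in both day comparisons, and Cpt1a in adult brown fat lies at 3.42.

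Cell type markers in the tissue also differed in level with genotype. In adult brown fat all 6 macrophage markers were higher in AdipoqCreMed1f/f without overlap, by a median of 1.34, in a comparison where 21.8% of all genes were higher without overlap. Their mean level was 7.29 to 7.60 in AdipoqCreMed1f/f, against 5.99 to 6.15 in Med1f/f. Adgre1, which encodes the macrophage surface protein F4/80, lay at 6.10 to 6.11 in AdipoqCreMed1f/f, against 4.46 to 4.75 in Med1f/f. The 6 hepatocyte markers, from another tissue that uses Cpt1a, were near the lower quartile, with a mean level of 2.37 to 2.38 in AdipoqCreMed1f/f, against 2.42 to 2.51 in Med1f/f. All 9 fibroblast markers had differences above 0 as well, 7 of them without overlap, and none of the macrophage or fibroblast markers passed limma's adjusted threshold there. The 10 measured markers of mature fat cells had a mean level of 8.74 to 9.30 in AdipoqCreMed1f/f, against 9.79 to 9.96 in Med1f/f. The part of these cells in the Cpt1a value was not tested. The 16 muscle markers had a mean level of 3.20 to 3.77 in AdipoqCreMed1f/f, against 3.27 to 4.24 in Med1f/f. The level of 4.24 was that of control replicate 2, the array with the highest adult Slc22a5 signal. The part of muscle in the Slc22a5 values was not tested. In whole tissue, fewer cells of a type and less RNA per cell cannot be told apart.

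In embryonic brown fat the 10 measured brown fat markers had a mean level of 6.77 to 7.19 in Myf5CreMed1f/f, against 7.83 to 8.43 in Myf5CreMed1f/w, and Ucp1, the heat-making uncoupling protein, averaged 7.63 ± 0.50 in Myf5CreMed1f/f (SD, n = 4), against 10.76 ± 0.77 in Myf5CreMed1f/w (SD, n = 3). The 16 muscle markers had a mean level of 6.48 to 6.66 in Myf5CreMed1f/f, against 5.29 to 6.20 in Myf5CreMed1f/w, with 14 of the differences above 0 and 11 of those genes without overlap, as were 8.56% of all genes in that direction. The 9 fibroblast markers had a mean level of 8.66 to 8.81 in Myf5CreMed1f/f, against 7.96 to 8.40 in Myf5CreMed1f/w. Their part in the lower Slc25a20, Cpt2 and Crat values was not tested. Ucp1, which defines the labelled tissue, was at 7.23 or above on every brown fat array of the embryo and at 10.90 or above in the adult.

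**Figure D3:**
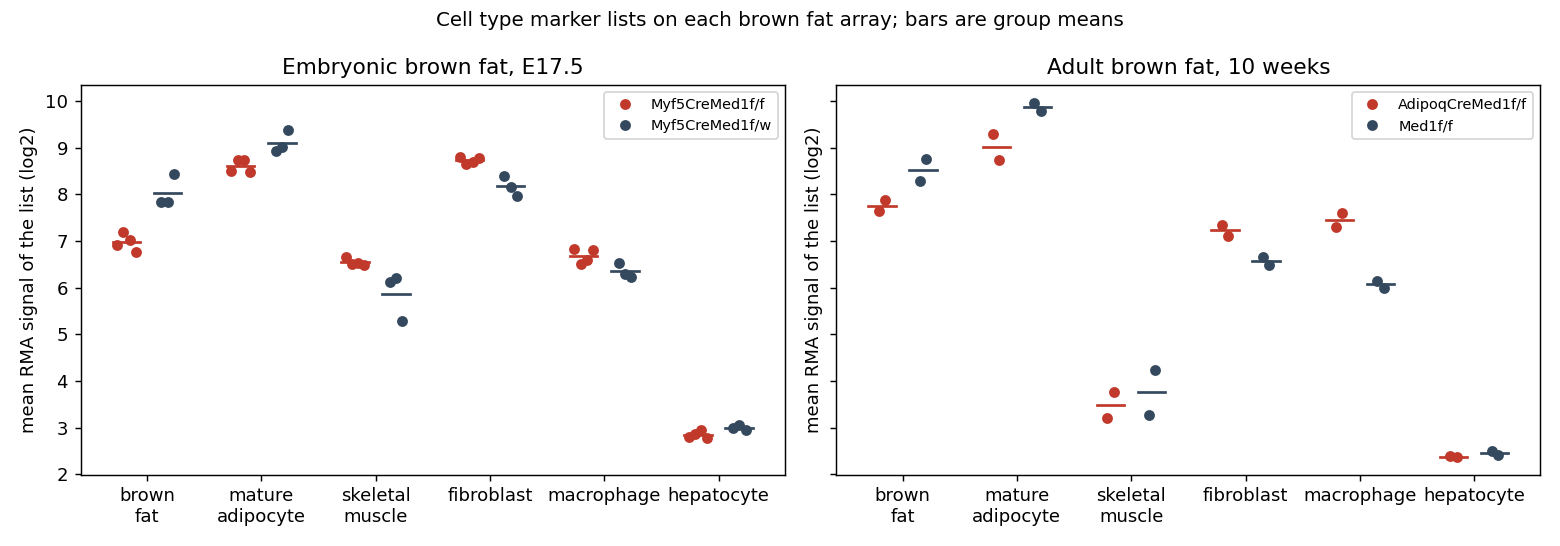
Mean log2 RMA signal (vertical axis) of 6 lists of cell type markers on each brown fat array, with a point per array and a bar for the group mean, in the embryo (left) and the adult (right). Brown fat and mature fat cell markers are lower in the knockouts in both panels, and macrophage markers lie at 7.29 to 7.60 in AdipoqCreMed1f/f against 5.99 to 6.15 in Med1f/f.

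The wider pathway gives the setting of these values, and its 53 other genes can be tested in brown fat, though the lists were drawn up with earlier results of these data known. In the embryo 7 of the 53 passed limma's adjusted threshold of 0.05, or 13.2%, against 1.16% of all genes. Lower in Myf5CreMed1f/f were Acadl, the long-chain acyl-CoA dehydrogenase, Acaa2, the last thiolase of the β-oxidation spiral, Etfa and Etfdh, which pass its electrons to the respiratory chain, Tmlhe, the first enzyme of carnitine synthesis, and Thrb, a thyroid hormone receptor. Acot1, an acyl-CoA thioesterase, was higher, although its near-identical neighbour Acot2 may share its signal. Etfdh averaged 10.52 ± 0.16 in Myf5CreMed1f/f (SD, n = 4), against 11.34 ± 0.18 in Myf5CreMed1f/w (SD, n = 3), a difference of -0.82 ± 0.12 (limma, adjusted p = 0.0459). The calls rest on all 7 arrays: leaving out any 1 array left 0 calls in the pathway and in the whole table, with a smallest adjusted p of 0.0506 to 0.111.

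All 17 measured β-oxidation genes had embryonic differences below 0, with a median of -0.70 against -0.01 over all genes, and 16 of them were lower without overlap, as were 6.83% of all genes. In the adult all 17 were again below 0 and without overlap, with a median of -0.43 against 0.002 over all genes, in a comparison where 20.1% of all genes were lower without overlap. None of the 53 pathway genes passed limma's adjusted threshold in the adult, where 6 of all genes passed (0.0271%). An unadjusted p under 0.05 was found for 20 of the 53, against 13.6% of all genes. Acadvl, which opens the oxidation of long-chain acyl-CoA that the shuttle delivers, lay at 9.72 to 9.84 in AdipoqCreMed1f/f, against 10.34 to 10.35 in Med1f/f.

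The genes that make and clear malonyl-CoA, the inhibitor of CPT1, did not pass in the fits used here. For Acaca, which encodes another acetyl-CoA carboxylase, the groups overlapped in the adult. They did not overlap in the embryo, where 8.56% of all genes were higher and 6.83% lower without overlap. Acacb, the acetyl-CoA carboxylase at the mitochondrial surface, lay at 7.26 to 7.76 in AdipoqCreMed1f/f, against 9.12 to 9.16 in Med1f/f, a difference of -1.63 ± 0.20 (limma, adjusted p = 0.0764). In the embryo it averaged 5.77 ± 0.62 in Myf5CreMed1f/f (SD, n = 4), against 7.40 ± 0.67 in Myf5CreMed1f/w (SD, n = 3), a difference of -1.63 ± 0.41 (limma, adjusted p = 0.0916). Mlycd, which breaks malonyl-CoA down, had differences of -0.47 ± 0.13 in the adult and -0.55 ± 0.14 in the embryo. These calls depend on the fit: Acacb passed in the adult with trended and robust moderation, in the embryo with dim genes left out, and in both with 1 fit of all 19 arrays, where Mlycd passed in the embryo.

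Of the 13 regulators listed beside Med1, Ppara and Ppargc1b had the lowest adult differences, and neither passed in the fit used here. Both passed under 5 of the 10 alternatives, namely the replicate block, 1 fit of all 19 arrays, trended and robust moderation, dim genes left out, and quantile normalization. Neither passed with the mean of a gene's clusters. The remaining alternatives leave 1 array in a group, so no call is read from them. Ppara, the nuclear receptor best known for driving Cpt1a in liver, lay at 3.76 to 4.61 in AdipoqCreMed1f/f, against 7.36 to 7.93 in Med1f/f, a difference of -3.46 ± 0.34 (limma, adjusted p = 0.0549). Ppargc1b, a coactivator of mitochondrial genes, lay at 4.21 to 4.51 in AdipoqCreMed1f/f, against 7.01 to 7.73 in Med1f/f, a difference of -3.01 ± 0.27 (limma, adjusted p = 0.0521). Slc27a2, which activates very long-chain fatty acids, differed by -4.07 ± 0.88 and Acsl5, an acyl-CoA synthetase, by -2.07 ± 0.25. The arrays with the high Cpt1a signal also had the low Ppara signal, in a comparison where 41.9% of all genes had groups without overlap. A link between Ppara and Cpt1a was not tested.

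**Figure D4:**
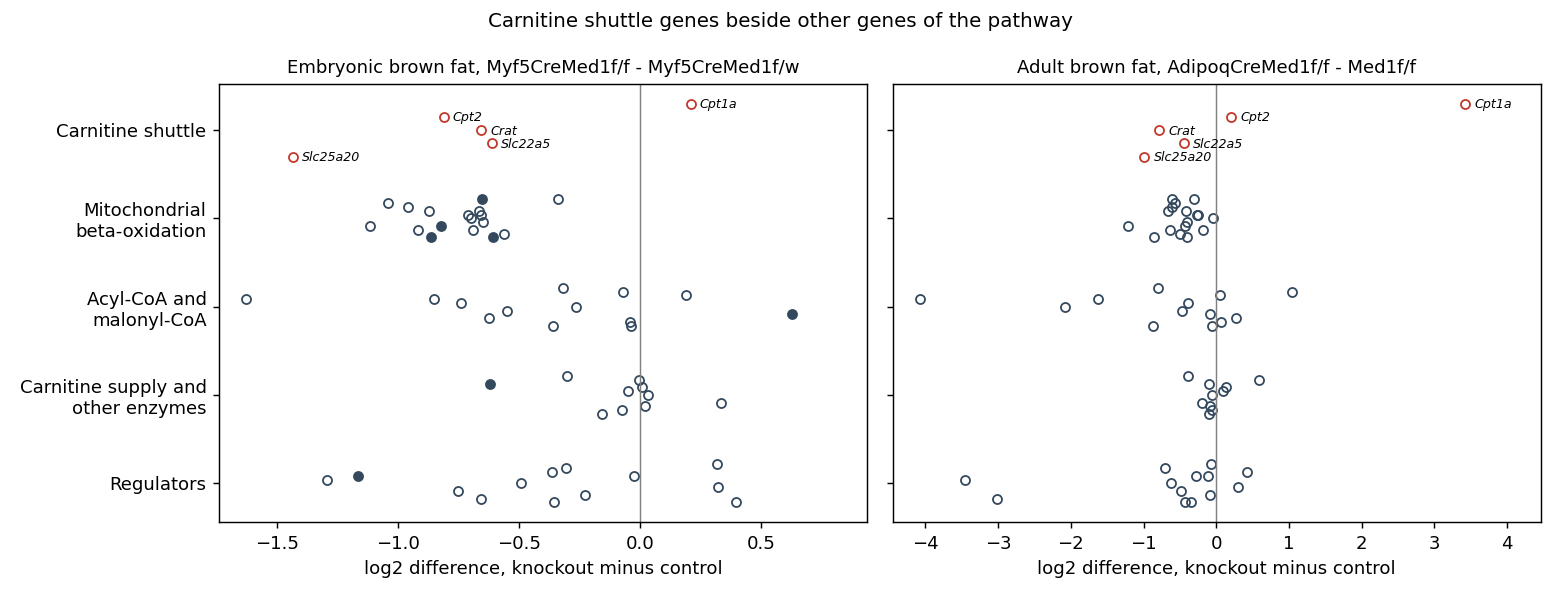
Log2 differences, knockout minus control (horizontal axis), of the 5 carnitine shuttle genes (red) and of 53 other genes of the pathway in 4 lists (blue), in embryonic (left) and adult (right) brown fat. Filled points passed limma's adjusted threshold of 0.05, and the shuttle genes were not tested. All 17 β-oxidation genes lie below 0 in both panels, and Cpt1a lies above 0 in both.

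The cell experiment asked whether MED1 loss moves the shuttle genes outside the contrasts that chose them. Over the 4 pairs of MED1-KO and WT arrays, 0 of the 5 genes passed limma's adjusted threshold, against 0.289% of all genes, and 1 of the 5 had an unadjusted p under 0.05, a level that 12.3% of all genes reached. That gene was Slc25a20, and a share of 1 in 5 is near that of all genes. Slc25a20 lay at 7.08 and 6.72 on day 0 and at 7.10 and 6.80 on day 2 in MED1-KO cells, against 7.23 and 6.80 on day 0 and 7.33 and 7.09 on day 2 in WT cells. It was lower in MED1-KO in 4 of 4 pairs, by -0.19 ± 0.08 with a 95% interval of -0.37 to -0.01 (limma, adjusted p = 0.394). Cpt2 and Crat were also lower in all 4 pairs, by -0.13 ± 0.09 and -0.14 ± 0.08, where 10.8% of all genes were.

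Cpt1a showed no such order. It lay at 8.78 and 8.42 on day 0 and at 7.75 and 7.81 on day 2 in MED1-KO cells, against 8.84 and 8.72 on day 0 and 7.57 and 7.91 on day 2 in WT cells. The genotypes overlapped on both days, and the difference was -0.07 ± 0.09 with a 95% interval of -0.29 to 0.15 (limma, adjusted p = 0.802). Slc22a5 differed by -0.05 ± 0.10 with a 95% interval of -0.28 to 0.18. The genotype comparisons by day were fitted without the pair block. In them 0 of the 5 genes passed limma's adjusted threshold on day 0 (0.185% of all genes) and 0 on day 2 (0.266%). An unadjusted p under 0.05 was found for 0 of the 5 on either day, where 4.88% of all genes had one on day 0 and 8.15% on day 2.

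The day of differentiation moved 2 of the genes in opposite directions. Cpt1a fell in both genotypes. The day 2 arrays given above lay below both day 0 arrays of the same genotype, by -0.82 ± 0.17 in MED1-KO cells (limma, adjusted p = 0.0202) and by -1.04 ± 0.17 in WT cells (limma, adjusted p = 0.00451). Cpt2 rose in both. In MED1-KO cells it lay at 7.99 and 8.14 on day 2, against 7.53 and 7.51 on day 0, a difference of 0.54 ± 0.12 (limma, adjusted p = 0.0302). In WT cells it lay at 8.34 and 8.29 on day 2, against 7.56 and 7.53 on day 0, a difference of 0.77 ± 0.12 (limma, adjusted p = 0.00410). So 2 of 5 genes passed in each genotype, where 5.7% of all genes passed in MED1-KO and 9.07% in WT.

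The other 3 genes did not pass limma's adjusted threshold in either genotype. Slc25a20 differed between days by 0.05 ± 0.19 in MED1-KO and by 0.19 ± 0.19 in WT cells. Crat lay at 8.32 and 8.29 on day 2 and at 8.63 and 8.52 on day 0 in MED1-KO cells, against 8.51 and 8.45 on day 2 and 8.65 and 8.69 on day 0 in WT cells. Its day differences were -0.27 ± 0.12 in MED1-KO and -0.19 ± 0.12 in WT. Slc22a5 lay at 6.87 and 6.79 on day 2 and at 6.77 and 6.49 on day 0 in MED1-KO cells, against 6.69 and 6.71 on day 2 and 7.07 and 6.66 on day 0 in WT cells, with day differences of 0.21 ± 0.16 and -0.17 ± 0.16.

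The day calls depend on the arrays and labels used. In MED1-KO cells, leaving out day 0 replicate 1, day 2 replicate 1 or day 2 replicate 2 left 0 of the 2 calls, and leaving out day 0 replicate 2 left 1, that of Cpt1a, whereas both calls stayed in WT cells whichever array was left out. Titles and source labels give different days for 4 of the 8 arrays of cells. The source label follows the replicate number, with day 0 for every replicate 1 and day 2 for every replicate 2. Each of its groups therefore mixes the title days, and its day comparison sets replicate 2 against replicate 1. With it no gene of the table passed, where by title 1265 genes passed in MED1-KO and 2012 in WT. The differences by source label were -0.15 for Cpt1a and 0.07 for Cpt2 in MED1-KO, and 0.11 for Cpt1a and -0.03 for Cpt2 in WT. The 4 pairs of genotypes are the same under either label. When all 19 arrays shared 1 fit, the calls in MED1-KO were also lost, with an adjusted p of 0.0593 for Cpt1a and 0.0860 for Cpt2 by limma.

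Whether the day response differed between genotypes was tested directly. The difference of day effects, MED1-KO minus WT, was 0.22 ± 0.23 for Cpt1a with a 95% interval of -0.31 to 0.75, and -0.23 ± 0.17 for Cpt2 with an interval of -0.61 to 0.16. In this test 0 of 22180 genes passed limma's adjusted threshold and 941 had an unadjusted p under 0.05. None of the 5 shuttle genes was among those 941. Slc22a5 had the largest of the 5 differences, 0.37 ± 0.23.

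Of the 10 measured markers of mature fat cells, 4 passed limma's adjusted threshold between genotypes on day 2, all lower in MED1-KO, against 0.266% of all genes. The 10 measured mature fat cell markers had a mean level of 5.34 to 5.40 in MED1-KO on day 2, against 6.15 to 6.26 in WT, and on day 0 the levels were 5.12 to 5.22 in MED1-KO, against 4.98 to 5.13 in WT. The part of this difference in the Cpt2 and Crat values on day 2 was not tested. Pparg, the master receptor of fat cell formation, was the 1 pathway gene of 53 (1.89%) that passed limma's adjusted threshold between genotypes on day 2. It lay at 5.84 to 5.87 in MED1-KO, against 7.80 to 7.94 in WT, a difference of -2.01 ± 0.13 (limma, adjusted p = 0.000374). Over the 4 pairs 0 of the 53 passed, with 11 at an unadjusted p under 0.05, where 12.3% of all genes had one, and on day 0 also 0, with 4, where 4.88% had one.

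Between days, 7 of the 53 pathway genes passed in MED1-KO (13.2%, against 5.7% of all genes) and 8 in WT (15.1%, against 9.07% of all genes). In both genotypes Pparg and its partner Rxra rose, while Acot2, a mitochondrial thioesterase, Slc27a1, a fatty acid transporter, and Ppargc1a, the coactivator of mitochondrial biogenesis, fell. Acot2 averaged 8.33 on day 2 and 10.40 on day 0 in MED1-KO, against 8.20 on day 2 and 10.19 on day 0 in WT, with day differences of -2.07 ± 0.17 and -1.98 ± 0.17. Acsl4 and Klf9 passed in MED1-KO, higher on day 2, and Acadm and Echs1 in WT, higher, with Acot13 lower. With the replicate block 9 passed in MED1-KO and 11 in WT, and Acot13 then also passed in MED1-KO and Klf9 in WT, so the genotype in which these 2 passed depends on the fit. Whether these 5 differed between genotypes is given by the genotype by day test, which called 0 of the 53.

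Genes whose pattern most resembled a shuttle gene were ranked by Pearson correlation over the 19 arrays, each centred on the mean of its experiment. For Cpt1a they were Atp6ap1 (0.93), a proton pump accessory protein of lysosomes, Mfge8 (0.93), a secreted protein that marks dying cells for uptake, and Litaf (0.93), a protein of late endosomes and lysosomes. For Slc25a20 they were Nrg4 (0.95), a growth factor secreted by brown fat, Dhrs11 (0.95), a short-chain reductase, and Etfa (0.94), the electron carrier of β-oxidation named above. In the 8 cell arrays alone the values were 0.93, 0.92 and 0.78 for the 3 genes like Cpt1a, and 0.66, 0.69 and 0.43 for the 3 like Slc25a20. The arrays fall into genotype and day groups that the genes share, so these values describe the ranking only.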

How the data were processed

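RNA of 19 mouse samples was measured on Affymetrix arrays. Total RNA was extracted with Trizol and labelled with the GeneChip WT PLUS kit, per the labels' protocols. The authors deposited log2 values. RMA and Transcriptome Analysis Console are listed, without a version, in the submitters' processing notes. RMA corrects the background, gives the arrays of a run one distribution and summarises probes per transcript cluster. The build behind the clusters is not given in the sources here. Of 41345 clusters, 23521 carry 1 gene symbol, and the cluster with the highest mean was used for the 1082 genes with several, which left 22180 genes, with no filter on dim ones.

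Groups follow the sample titles. Differences were fitted under R 4.3.3 in limma 3.58.1 (lmFit, eBayes, two-sided, Benjamini-Hochberg over all 22180 genes, threshold 0.05), in a fit for each experiment. The genotype comparison over both days in cells had the 4 pairs as a block. The genotype comparisons by day, the day comparisons and the genotype by day test had no block. Same-numbered cell arrays deviated together, with correlations of 0.353 on day 0 and 0.296 on day 2. The adult brown fat arrays, which were not treated as pairs, gave 0.335, so these values do not settle which arrays are paired. The code was tested on simulated data. The members and lists were chosen with earlier results of these data known. The genes to be named were the members, Med1, the listed pathway genes and the 3 most correlated with Cpt1a and with Slc25a20. Left out were Cpt1b, whose cluster carries 3 symbols, and Acsl1 and Acsl3, which have no value in the 22180 genes. The number of arrays limits the precision.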

Additional observations from a re-analysis of the deposited data

Results flagged for a closer look

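Cpt2 was flagged because its knockout arrays lay wholly above their controls in adult brown fat, by 0.21, and wholly below them in 3 other comparisons. Of all genes, 21.8% were higher without overlap in the adult and 6.83% lower without overlap in the embryo. Both brown fat contrasts chose the genes, and no such share is given for the cells by day. Those cell groups hold 2 arrays each, as in the adult, where 41.9% of all genes had groups without overlap. Nothing is therefore read from these separations. In embryonic brown fat the difference was -0.81, and the embryonic effect minus the adult one was -1.02. In 3T3-L1 cells it was -0.25 on day 2 and -0.02 on day 0, and these effects minus the adult one were -0.45 and -0.23. The day 0 cell arrays were only 0.02 apart in the mean. None of these differences between effects was tested.

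Slc22a5 lay wholly above WT in MED1-KO cells on day 2, by 0.14, and wholly below the controls in embryonic brown fat, by -0.61. In the embryo 6.83% of all genes were lower without overlap, and as for Cpt2 nothing is read from these separations. The 2 effects were 0.75 apart, and this difference was not tested. None of the 5 genes had a single array far from the others in the group of 4 Myf5CreMed1f/f arrays, the only group with enough arrays to look.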

How the results depend on the processing

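Of the single values of the 5 genes over all alternatives, 531 kept their side of the threshold or, in brown fat, moved by less than the replicate spread. Of these, 508 kept their sign and 23, none of them called, changed it. A further 11 lost their call in the day comparison of MED1-KO cells, 2 called values reversed, and 1, Crat in the adult at -0.65 with the mean of its clusters, moved. Only the day differences of Cpt1a and Cpt2 were called in the fits used here, so the other values had no call to lose. All lost and reversed calls were among these day differences. Days by the source label follow the replicate number. With them, the member calls and the pathway calls between days were 0 in both genotypes, and the day 2 genotype call of Pparg was 0. In WT Cpt1a then turned to 0.11 and Cpt2 to -0.032. When all 19 arrays shared 1 fit, the day comparison of MED1-KO called 0 members and 4 pathway genes, and pathway calls were 1 over the pairs, 1 on day 0, 1 for the genotype by day difference, 24 in the embryo and 14 in the adult. Leaving out dim genes gave 1 over the pairs, 1 on day 0, 23 in the embryo and 3 in the adult. Quantile normalization gave 12 in the embryo and 2 in the adult, and trended, robust moderation 4 in the adult. Leaving out 1 array gave 0 to 2 member and 2 to 7 pathway calls between days in MED1-KO, 4 to 8 pathway calls in WT and 0 in the embryo. The cell arrays were treated as paired only in the genotype comparison over the 4 pairs. Without the replicate block the pathway had 1 call over the pairs, and adding it to the other cell comparisons changed no member's call. Replicate numbers in brown fat were not treated as pairs. With the replicate block the pathway calls were 0 in the embryo (correlations of 0.314, -0.02 and 0.110) and 3 in the adult (0.335). In the adult the block raised the calls over all genes from 6 to 139. The cause of these shifts was not tested. With 2 arrays a group, the adult fit has 2 residual degrees of freedom.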
